A study of Mus musculus with 4 samples.

Results

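The genes described here were the integrin subunits and laminin chains of mouse embryonic fibroblasts (MEFs), connective-tissue cells grown from embryos. They were chosen by the gene symbols printed in the array design: symbols of the form Itga or Itgb followed by a subunit name, and Lama, Lamb or Lamc followed by 1 digit. The genes reported were 34 of 27745 named on the arrays, of which 25 were integrin subunits and 9 were laminin chains. They were covered by 76 probes, and each gene was represented by its brightest probe. Of the 34 genes, 25 gave a signal well above background in at least 1 of the RNAs compared, in each of both comparisons, and these were the same 25 genes.

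The study compared MEFs lacking cyclin G1 (G1KO, genotype CycG1-/-) with MEFs of genotype CycG1+/+ (WT), and MEFs lacking cyclin G2 (G2KO, genotype CycG2-/-) with MEFs of genotype CycG2+/+ (WT), on 4 Agilent arrays of 2 colours. The G1KO allele removes all coding exons of Ccng1, and the labels give the strain as C57BL/6J, with "C57BL/7J" in the source names of the G2KO pair. All cultures were untreated and taken in logarithmic growth. Each comparison had 2 arrays with the dyes exchanged, so that the knockout RNA was in Cy5 on array 1 and in Cy3 on array 2. Per the labels array 2 was a dye swap, so both arrays were counted as 1 replicate, there was 1 sample of each genotype per comparison, and no p-value was computed. Every ± below is the SD between the 2 arrays and covers the measurement only, not the difference between cultures. No WT sample was shared by the comparisons.

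Integrins are cell surface receptors made of an α and a β subunit that join the extracellular matrix to the cytoskeleton. Laminins are cross-shaped proteins of the basement membrane, each built from an α, a β and a γ chain. Integrins with the α3, α6 or α7 subunit bind laminins, those with α1, α2, α10 or α11 bind collagens, and those with αv, α5 or α8 recognise the RGD motif of proteins such as fibronectin. Fibroblasts anchor mainly through β1 integrins, while the α6β4 integrin is the receptor of hemidesmosomes in epithelia.

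A ratio is given as the log2 of knockout over WT signal, and a gene is called higher or lower where it differed at least 2-fold, in the same direction, on both arrays. In the G1KO RNA, the brighter Ccng1 probe had log2 ratios of -6.76 and -6.57, a mean of -6.67 ± 0.13. In the RNA labelled G2KO, Ccng2 had log2 ratios of 0.28 and -0.10, so its probe, whose place relative to the deleted part was not checked, showed no loss of the targeted transcript, and Ccng1 stood at 2.67 ± 0.03. The culture is therefore named below as the RNA labelled G2KO. The log2 normalised signal of Ccng1 was 13.81 and 13.80 in that RNA and 11.16 and 11.12 in its WT. In the WT of the G1KO pair it was 13.66 and 13.68, so the WT cultures differed in Ccng1 as well. Xist was higher in both knockout RNAs, by 7.54 ± 0.43 in the first comparison and 7.24 ± 0.46 in the second, and the Y-linked Eif2s3y was not well above background in either of them. Sex and genotype cannot be told apart in either comparison. Over the probes detected, the log2 ratios of the 2 arrays had a Pearson correlation of 0.952 across 25541 probes for G1KO and of 0.959 across 25430 probes for G2KO; probes are not independent replicates.

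Sequence upstream of the annotated start was at hand for 5 of the 7 genes that were called in either comparison, and it is shown because all 5 were called in the second comparison, some higher and others lower. No sequence was at hand for Itga6 and Itgb4, both called higher in that comparison. Each run is the 250 bases before the start in the RefSeq table of build GRCm38.p6, read 5′ to 3′ on the strand of the gene. The places are chr2:180225860-180226109 (minus strand) for Lama5, chr11:95076715-95076964 (minus) for the first of the 2 Itga3 starts in the table, chr10:27616943-27617192 (minus) for Lama2, chr2:12301945-12302194 (minus) for Itga8 and chr15:102231936-102232185 (minus) for Itgb7. Capitals mark the GC box, searched as GGGCGG on both strands.
Lama5: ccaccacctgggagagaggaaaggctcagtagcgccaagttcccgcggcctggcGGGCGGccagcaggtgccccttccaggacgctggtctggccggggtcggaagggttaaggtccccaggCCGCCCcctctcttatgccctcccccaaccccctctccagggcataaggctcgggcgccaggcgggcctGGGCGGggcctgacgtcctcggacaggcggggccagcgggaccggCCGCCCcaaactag
Itga3: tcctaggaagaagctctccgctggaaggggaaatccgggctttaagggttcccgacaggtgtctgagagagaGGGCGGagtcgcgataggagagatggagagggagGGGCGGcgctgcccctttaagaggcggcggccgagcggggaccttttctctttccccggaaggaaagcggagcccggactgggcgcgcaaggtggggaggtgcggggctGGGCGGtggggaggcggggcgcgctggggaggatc
Lama2: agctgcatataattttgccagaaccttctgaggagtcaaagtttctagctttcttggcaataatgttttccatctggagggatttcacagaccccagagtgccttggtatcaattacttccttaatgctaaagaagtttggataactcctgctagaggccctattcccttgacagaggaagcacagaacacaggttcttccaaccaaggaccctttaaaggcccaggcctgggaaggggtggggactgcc
Itga8: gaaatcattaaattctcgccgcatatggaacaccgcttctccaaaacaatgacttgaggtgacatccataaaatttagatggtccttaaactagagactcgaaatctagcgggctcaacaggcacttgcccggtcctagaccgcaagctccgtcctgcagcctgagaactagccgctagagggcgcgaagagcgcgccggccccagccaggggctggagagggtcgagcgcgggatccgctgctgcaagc
Itgb7: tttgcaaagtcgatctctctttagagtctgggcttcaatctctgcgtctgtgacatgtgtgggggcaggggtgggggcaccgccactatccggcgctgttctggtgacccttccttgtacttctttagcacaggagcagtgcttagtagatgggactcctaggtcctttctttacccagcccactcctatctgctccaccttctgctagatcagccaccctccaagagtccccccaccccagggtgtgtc
The GC box occurred 4 times before Lama5 and 3 times before Itga3, and it was not found in the windows of Lama2, Itga8 and Itgb7. The second Itga3 start had 1. Among members not called, it occurred 3 times before Itgb5, 2 times before Itga5, and 1 time each before Itga4, Itgb1 and Itgam. Itgam was not detected, and the others had means below 0 in the RNA labelled G2KO. Of the 25 starts listed for members, 8 held the GC box. Over all 32851 promoters of the table, 32.7% held it in the same window. The AP-1 motif TGANTCA, held by 6.75% of all promoters, and the TEAD motif CATTCC, held by 12.6%, were found before none of these 5 genes. A match or its absence describes the letters of this window and says nothing about a factor.

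**Figure D1:**
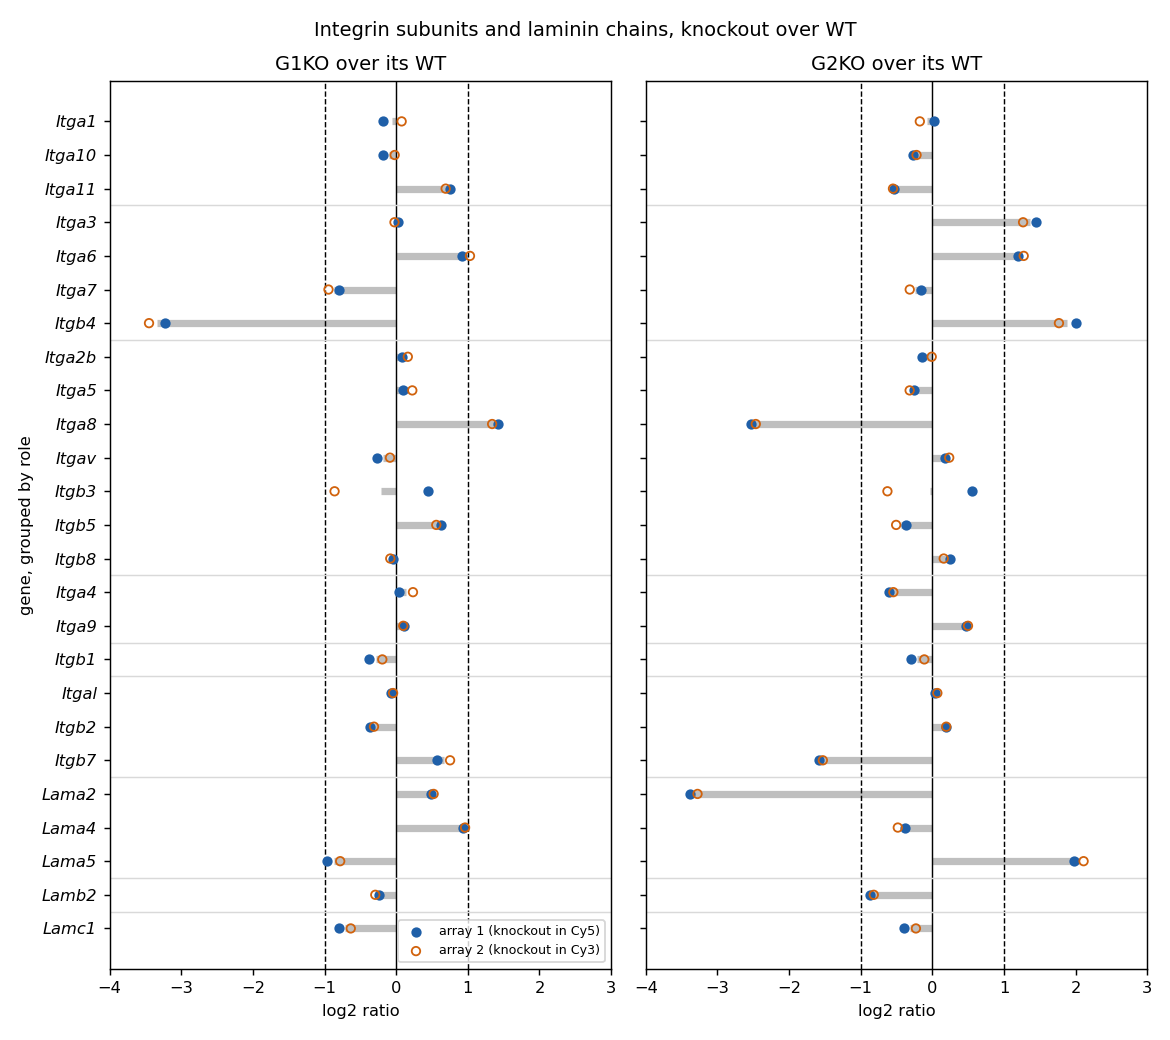
Log2 ratios of knockout over WT (x axis) for the 25 detected integrin and laminin genes (y axis, grouped by role), in G1KO (left), and in the second comparison (right). Filled points are array 1, open points are array 2, grey bars are their mean, and dashed lines mark 2-fold; Itgb4 lies at -3.34 on the left and at 1.88 on the right, and only Itgb3 has its arrays far apart.

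In G1KO, Itga8 was called higher, 1 of the 25 detected members, against 2.48% of all detected genes. Itgb4 was called lower, also 1 of 25, against 4.45%. In either direction, 8% of the detected members were called, against 6.93% of all detected genes. The median log2 ratio of the members was -0.06, and that of all 16615 detected genes was -0.0024. In bulk RNA, fewer cells of a type and less RNA per cell cannot be told apart.

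Among the subunits of laminin receptors, Itgb4 was lower in G1KO. Itgb4 encodes β4, which pairs only with α6. Its brightest probe lay at chr11:115824333-115824392 of build mm8, on the plus strand. The log2 normalised signal of this probe was 12.47 and 12.51 in WT RNA (Cy3 and Cy5) and 9.05 and 9.24 in G1KO RNA. The log2 ratios were -3.23 and -3.45, a mean of -3.34 ± 0.16, or 10.1-fold lower. The 2 signals of each side come from 1 RNA read in 2 dyes, so their separation adds nothing to the call. Itga6, which encodes its partner α6, went the other way, with log2 ratios of 0.92 and 1.03 and a mean of 0.97 ± 0.08. It passed 2-fold on array 2 only and was not called. Itga7, whose α7 subunit is the laminin receptor of muscle, had -0.81 and -0.95, and Itga3, which encodes α3, had 0.03 and -0.02. Of the 4 laminin-binding subunits, all detected, 1 was therefore called lower and none higher.

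Of the 5 reported laminin chains that were detected in G1KO, none was called. Lama5, which encodes the widespread α5 chain, had log2 ratios of -0.96 and -0.78, and Lamc1, which encodes γ1, had -0.80 and -0.63. Lama4, the α4 chain of mesenchymal and vascular laminins, had 0.93 and 0.96, and Lama2, the α2 chain of muscle and nerve laminins, had 0.49 and 0.52. All 4 were under 2-fold, although each kept its sign on both arrays. Lamb2, which encodes β2, had a mean of -0.27 ± 0.03. Lamb1, which encodes β1 and stands in the array design as Lamb1-1 outside the rule, had a mean of -0.04 ± 0.14.

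Among the remaining integrins of G1KO, Itga8 was called higher. Itga8 encodes α8, a receptor for nephronectin and fibronectin found in mesenchyme and smooth muscle. Its brightest probe lay at chr2:12024688-12024747 on the minus strand, with a log2 signal of 7.15 and 7.06 in WT RNA and of 8.40 and 8.57 in G1KO RNA. The log2 ratios were 1.42 and 1.34, a mean of 1.38 ± 0.06, or 2.60-fold higher. With the log ratio of the scanner software the mean was 2.13. Of the 7 detected RGD-binding subunits it was the only one called. Itgb5, which encodes β5, had a mean of 0.59 ± 0.04, and the vitronectin receptor subunit Itgav had -0.18 ± 0.13. The fibronectin receptor subunit Itga5 had 0.16 ± 0.09. Itgb1, the β1 subunit shared by most of these receptors, had log2 ratios of -0.38 and -0.19. The collagen receptor subunit Itga11 had 0.75 and 0.69, and Itga1 had -0.19 and 0.08. Itgb7, a leukocyte subunit, had 0.57 and 0.75. The other detected leukocyte subunits, Itgal and Itgb2, had means of -0.06 ± 0.03 and -0.34 ± 0.04. Itga4 had 0.14 ± 0.14, and Itga9, whose WT RNA was well above background on 1 array only, had 0.11 and 0.098.

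In the RNA labelled G2KO, 4 of the 25 detected members were called higher, against 2.73% of all 16573 detected genes, and 3 were called lower, against 4.83%. Higher were Itga3, Itga6, Itgb4 and Lama5. Lower were Itga8, Itgb7 and Lama2. In either direction, 28% of the detected members were called, against 7.56% of all detected genes. The median log2 ratio of the members was -0.21, against -0.016 for all detected genes. The calls lay on both sides of the median.

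Of the 4 laminin-binding subunits, 3 were higher in the RNA labelled G2KO. Itgb4 had a log2 signal of 8.21 with both dyes in WT RNA and of 9.97 and 10.21 in G2KO RNA. Its log2 ratios were 2.0002 and 1.77, a mean of 1.88 ± 0.16, or 3.69-fold higher. Itga3, with its brightest probe at chr11:94860763-94860822, had a signal of 9.37 and 9.53 in WT RNA and of 10.79 and 10.82 in G2KO RNA. Its log2 ratios were 1.45 and 1.27, a mean of 1.36 ± 0.13, or 2.57-fold higher. The 2 signals of each side come from 1 RNA read in 2 dyes. Itga6, with its brightest probe at chr2:71658755-71658814, had a signal of 11.56 and 11.43 in WT RNA and of 12.70 and 12.75 in G2KO RNA. Its log2 ratios were 1.19 and 1.27, a mean of 1.23 ± 0.06, or 2.35-fold higher. With median centring in place of loess, Itga6 had 2.04 and 0.65 and Itga3 had 2.16 and 0.72, so that neither was called, while the means stayed over 1. The fourth, Itga7, had -0.16 and -0.32 and was not called. Itgb1, whose β1 pairs with α3 and α6, had -0.30 and -0.11 and was not called.

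The laminin α chains moved apart in the RNA labelled G2KO. Lama5 had a log2 signal of 8.02 and 7.98 in WT RNA and of 10.09 and 9.99 in G2KO RNA. Its log2 ratios were 1.98 and 2.11, a mean of 2.04 ± 0.10, or 4.12-fold higher. Lama2 was the member that fell furthest in that RNA. Its brightest probe, at chr10:26673839-26673898, was printed at 10 spots per array and had a mean signal of 10.15 and 10.22 in WT RNA and of 6.94 and 6.76 in G2KO RNA. Its log2 ratios were -3.38 and -3.28, a mean of -3.33 ± 0.07, or 10.1-fold lower. The size depended on the processing, with a mean of -4.52 by the log ratio of the scanner software and of -3.995 at a normexp offset of 10. The 10 spots ranged from -3.53 to -3.25 on array 1 and from -3.42 to -3.16 on array 2, so that no single spot set the value. Lama4 had -0.38 and -0.48, Lamb2 had -0.87 and -0.82, and Lamc1 had -0.40 and -0.23. Lamb1 was at 0.13 ± 0.06. Of the chains that join α2 or α5 in a trimer, β1, β2 and γ1, none was called.

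The other called integrins of the RNA labelled G2KO were Itga8 and Itgb7, both lower. Itga8 had a log2 signal of 11.61 and 11.67 in WT RNA and of 9.20 and 9.07 in G2KO RNA. Its log2 ratios were -2.53 and -2.47, a mean of -2.50 ± 0.05, or 5.66-fold lower. Itgb7 encodes β7, the partner of α4 and αE on lymphocytes, and its only probe lay at chr15:102044053-102044112. Its signal was 7.68 and 7.90 in WT RNA and 6.37 and 6.10 in G2KO RNA, where neither array had it well above background. The log2 ratios were -1.58 and -1.53, and because the G2KO signal is only a bound, Itgb7 was at least 2.94-fold lower. Its mean was -3.76 by the log ratio of the scanner software and -2.50 at a normexp offset of 10. Such a bound sets the mean WT signal against, on each array, whichever is higher, the signal of the probe itself or the dimmest signal counted as well above background.

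The collagen-binding Itga11 had a mean of -0.54 ± 0.01, and Itga4, a receptor for fibronectin and VCAM-1, had -0.58 ± 0.05. Itga9 had 0.48 ± 0.02, Itgb5 -0.44 ± 0.10, Itga5 -0.28 ± 0.05, Itgav 0.21 ± 0.04 and Itgb8 0.20 ± 0.06. With RefSeq current symbols, Itga9 was at 0.14 here and at 0.30 in G1KO. Itga10, whose G2KO RNA was well above background on 1 array only, had log2 ratios of -0.27 and -0.22. None of these reached 2-fold, but Itga10 was at -1.29 and called lower with the log ratio of the scanner software and with the deposited series table. Itga2b, Itgal, Itgb2 and Itga1 had means between -0.08 and 0.19. In G1KO, Itga10, well above background on 1 array of the knockout RNA only, had -0.19 and -0.02, and Itga2b and Itgb8 had means of 0.12 and -0.06.

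The 9 members not well above background in both arrays of any RNA were Itga2, Itgae, Itgam, Itgax, Itgb6, Lama1, Lama3, Lamb3 and Lamc3. They encode α2, the αE, αM and αX subunits of leukocytes, the epithelial β6, and the laminin chains α1, α3, β3 and γ3. Their levels could not be compared at this signal.

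**Figure D2:**
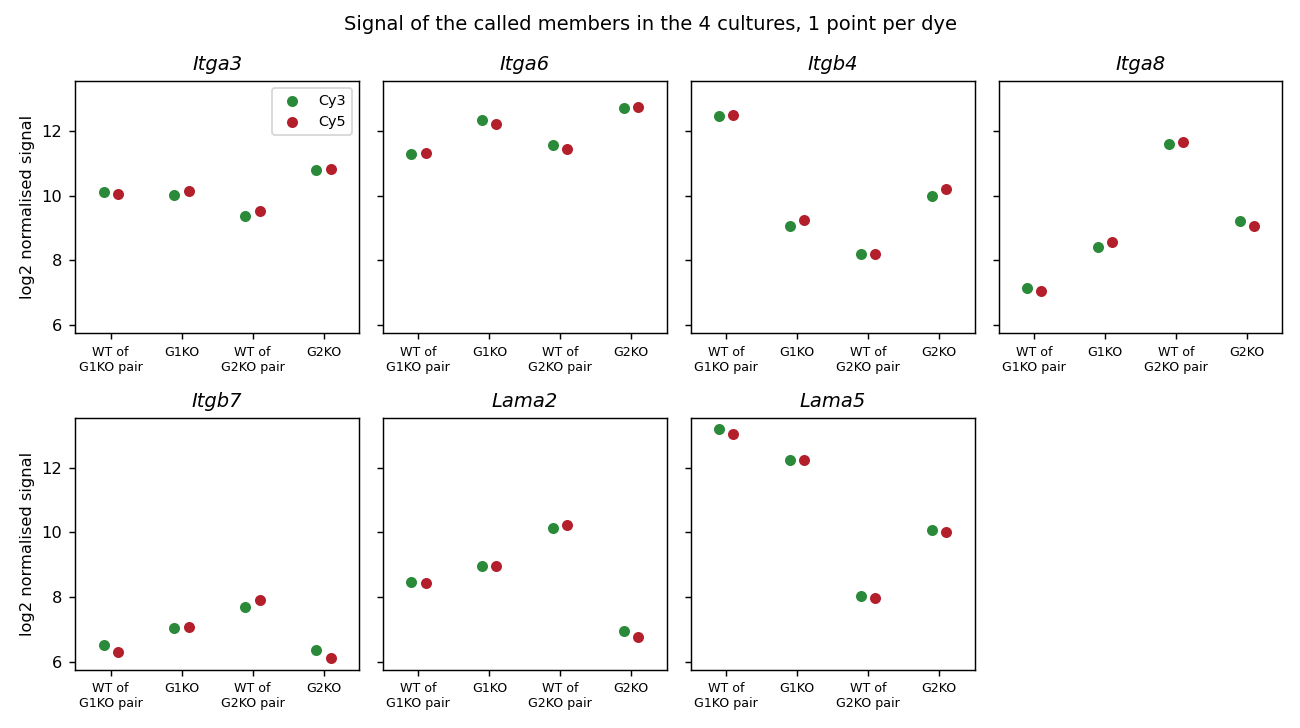
Log2 normalised signal (y axis) of the 7 called genes in the 4 cultures (x axis), with 1 point per dye. Each culture has 1 sample; the Lama5 points of the WT culture of the G1KO pair lie at 13.19 and 13.03, and those of the WT culture of the G2KO pair at 8.02 and 7.98.

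Because the comparisons shared no sample, their values can be set side by side. Of the 25 members detected in both, 15 had the same sign on both arrays of G1KO and the opposite sign on both arrays of G2KO, while 5651 of 15731 genes detected in both did so. Itga8 was called higher in the first comparison but lower in the second, and Itgb4 lower in the first but higher in the second. No member was called in the same direction in both at this setting. Itga6 was called higher in both with the log ratio of the scanner software, with the deposited series table, without array 1 and with any detected probe. Itgb3 was called lower in both with any detected probe. With any detected probe, the Itga6 calls came from a different probe in each comparison, while the Itgb3 calls came from the same probe. Of all genes detected in both, 113 were called higher in G1KO and lower in G2KO, 66 the reverse, and 153 the same way. Across the 25 genes the mean log2 ratios had a Pearson correlation of -0.55, and across all 15731 genes of -0.05; genes are not independent replicates, and these are descriptions. The difference between the comparisons was not tested, since each has 1 sample per genotype.

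**Figure D3:**
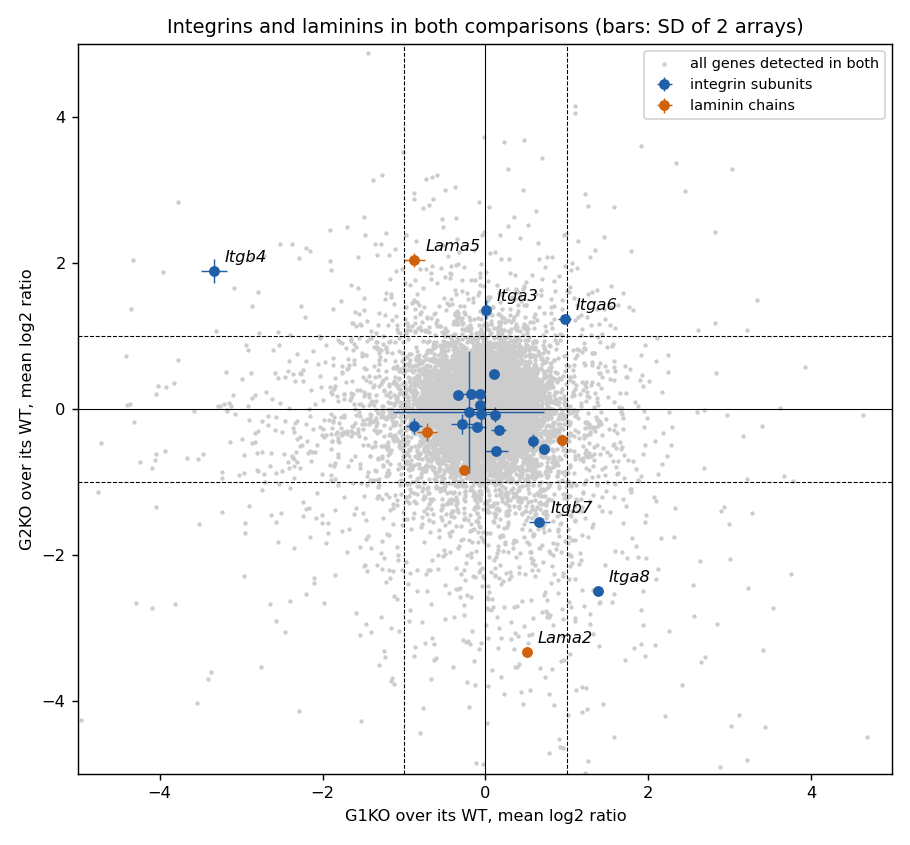
Mean log2 ratio in G1KO (x axis) against that in the RNA labelled G2KO (y axis) for integrin subunits (blue), laminin chains (orange) and all other genes detected in both comparisons (grey). Bars are the SD of the 2 arrays, dashed lines mark 2-fold, and 18 grey genes lie outside the axes; Itgb4 and Lama5 lie at the upper left, Itga8, Itgb7 and Lama2 at the lower right.

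The WT cultures differed from each other in these genes. Signals of the same dye were compared, WT of the G2KO pair minus WT of the G1KO pair, a comparison added after the data had been seen. Of 25 members detected, 8 were at least 2-fold higher with both dyes in the WT of the G2KO pair, against 6.62% of 17019 detected genes. A further 2 were at least 2-fold lower, against 6.17%. The collagen receptor subunit Itga11 differed by 3.84 in Cy3 and 3.82 in Cy5, Itga8 by 4.46 and 4.61, and Lama4 by 3.45 and 3.57. The other higher genes were Itgb5, at 2.35 ± 0.08, Lama2, at 1.73 ± 0.08, Itga4, at 1.71 ± 0.12, Itgb7, at 1.39 ± 0.31, and Itga9, by 1.40 and 1.20. Lower were Lama5, by -5.17 and -5.06, and Itgb4, by -4.26 and -4.30. For Itga8, Itgb4 and Lama5 the difference between the WT cultures was larger in size than either knockout difference. Culture, strain label and pair cannot be told apart in this comparison. The names of the scanner files carry population doubling levels, a measure of time in culture, which were not used here.

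**Figure D4:**
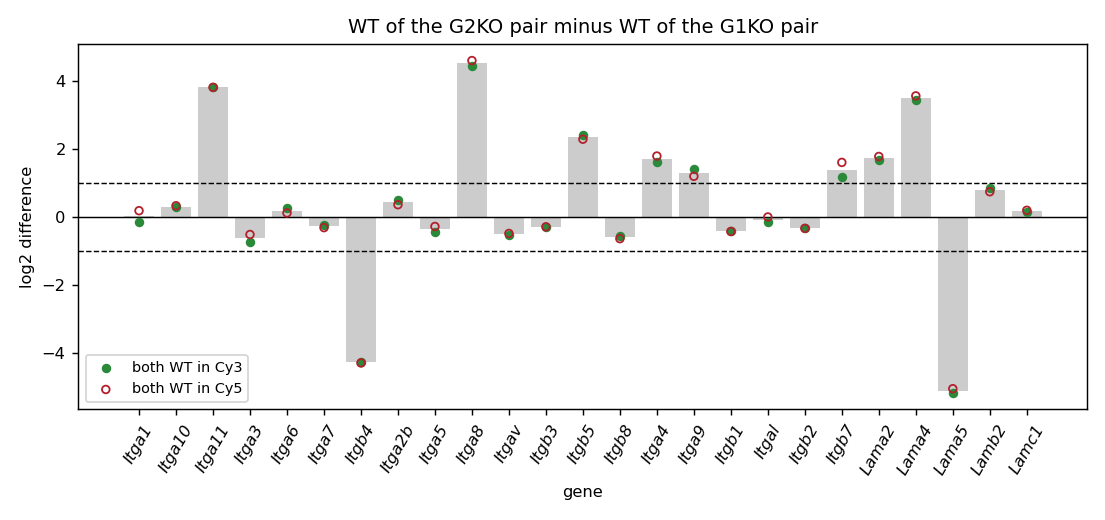
Log2 difference in normalised signal between the WT of the G2KO pair and the WT of the G1KO pair (y axis) for the 25 detected members (x axis). Green points are Cy3, open red points are Cy5, grey bars are their mean and dashed lines mark 2-fold; Itga8 stands highest at 4.53 and Lama5 lowest at -5.12.

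Of the 34 members, 22 had several probes, and these differed for some genes. For Itgb3, the β3 subunit of the vitronectin receptor, the brightest probe gave log2 ratios of 0.45 and -0.86 in G1KO. In the second comparison it gave 0.55 and -0.63, so that it changed sign with the dye in both. The other Itgb3 probe gave -1.03 and -1.03 in G1KO, with -1.26 and -1.39 in the second comparison, and would be called lower in both. Itgb3 was singled out after its values were seen. The level of Itgb3 is therefore uncertain, and it is not counted among the called genes.

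The called genes also had probes that differed from the brightest one. The second Itgb4 probe gave -3.58 ± 0.14 in G1KO, with 2.06 and 1.93 on the arrays of the second comparison. It lies at chr11:115824323-115824382 and overlaps most of the brightest probe, so it is not a separate reading of the transcript. The third, which lies elsewhere, gave -0.38 ± 0.04 in G1KO and fell below the detection rule in the other comparison. The second Itga8 probe gave 1.05 ± 0.05 and -2.26 ± 0.08, and the third was detected in the second comparison only, at -0.25 ± 0.13. The second Lama2 probe gave 0.39 ± 0.08 and -2.71 ± 0.38, with G2KO RNA well above background on 1 array only. For these 3 genes, 2 probes each had the same call, which for Itgb4 were the overlapping ones.

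The calls of Itga6 also depended on the probe. Its other probes gave 0.92 ± 0.07 and 1.13 ± 0.08 in G1KO, the latter called higher, and 0.80 ± 0.06 and 0.26 ± 0.08 in the RNA labelled G2KO, neither of them called. The other Itga3 probes gave 1.62 ± 0.06, called, and 0.41 ± 0.23, not called, in that RNA. Lama5, Itgb7 and 10 other members had a single probe under their array symbols. Positions of the probes within the transcripts were not analysed here.

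**Figure D5:**
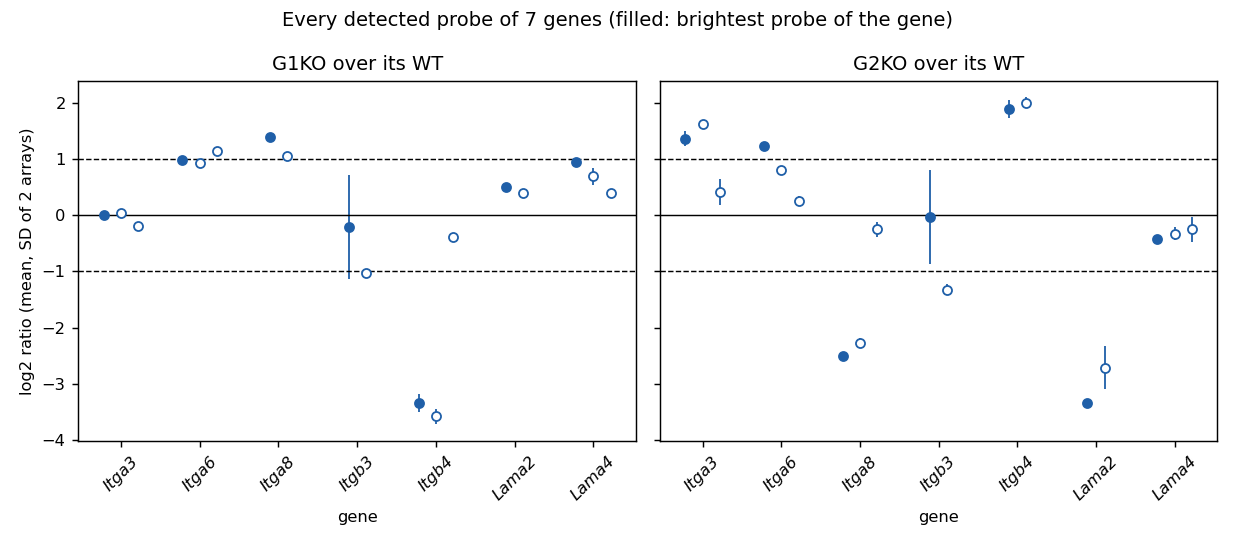
Log2 ratio of knockout over WT (y axis; mean and SD of 2 arrays) of every detected probe of 7 genes (x axis), in G1KO (left), and in the second comparison (right). Filled points are the brightest probe of a gene and dashed lines mark 2-fold; the Itgb3 probes and the Itga6 probes differ by more than their SD in the right panel.

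Genes that act beside these receptors and ligands were taken from lists. Beside the counts of every list below stand the shares of all detected genes. In G1KO, 2.48% of all detected genes were called higher and 4.45% lower, and in the RNA labelled G2KO 2.73% and 4.83%. The lists were not tested against these shares. Of 17 other basement membrane genes on the arrays, 14 were detected in G1KO, with 2 called higher and 4 lower and a median log2 ratio of -0.21. Higher were Col18a1, the collagen of endostatin, at 1.91 ± 0.06, and Npnt, the α8 ligand nephronectin, at 1.78 ± 0.00. Lower were the type IV collagens Col4a6 (-4.09 ± 0.15), Col4a5 (-1.68 ± 0.00) and Col4a1 (-1.27 ± 0.03), and Fras1, which encodes a protein of the basement membrane under embryonic epithelia (-1.85 ± 0.09). In the RNA labelled G2KO, 13 were detected, with 3 higher and 5 lower and a median of 0.13. Nid1, which encodes the laminin-binding nidogen 1, was at -4.31 ± 0.12, and its relative Nid2 at 1.21 ± 0.04. Col18a1 was again higher, at 3.60 ± 0.08, and Npnt at 2.17 ± 0.02, while Col4a6 (-2.73 ± 0.14), Col4a1 (-1.81 ± 0.12), Col4a5 (-1.65 ± 0.09) and Col4a2 (-1.25 ± 0.06) were lower. Npnt was thus higher in both comparisons, while its receptor subunit Itga8 was higher in one and lower in the other.

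Of 20 other integrin ligands, 19 were detected in each comparison. In G1KO, 4 were higher and 2 lower, with a median of 0.17. Among the higher genes, osteopontin, encoded by Spp1, was at 3.76 ± 0.21 and Tgfbi, a matrix protein induced by TGF-β, at 2.69 ± 0.12. The lower genes were Ctgf, a matricellular growth factor, at -1.89 ± 0.38 and Icam1, the ligand of leukocyte integrins, at -1.09 ± 0.08. In the RNA labelled G2KO, 1 was higher and 6 lower, with a median of -0.64. Ctgf was at 1.90 ± 0.34, and the lower genes were Postn, which encodes periostin (-4.19 ± 0.07), Tgfbi (-3.40 ± 0.04), Spp1 (-2.26 ± 0.19) and the collagens Col3a1 (-2.90 ± 0.14), Col1a2 (-2.31 ± 0.42) and Col1a1 (-1.38 ± 0.02). Spp1, Tgfbi and Ctgf had opposite calls in the comparisons.

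The other laminin receptors, 12 genes that were all detected, had 1 higher and 2 lower in G1KO, against none higher and 4 lower in the second comparison. Among the called genes, the proteoglycan gene Cspg4 was lower in both, at -1.03 ± 0.02 and -2.20 ± 0.00, whereas the glypican gene Gpc1 was at 1.20 ± 0.02 and -1.15 ± 0.07. Of 28 focal adhesion adaptors and kinases, 27 were detected in G1KO, with 1 higher and 2 lower and a median of -0.23, and 26 in the RNA labelled G2KO, with none higher and 3 lower and a median of 0.06. Kank1, shown on the array as Ankrd15, was lower in both, at -2.96 ± 0.19 and -2.29 ± 0.08, and the talin gene Tln2 was higher in G1KO, at 1.35 ± 0.07. Of 6 tetraspanin partners, Cd82 was lower in both, at -1.84 ± 0.15 and -2.27 ± 0.04, and Cd151, the partner of α3 and α6 integrins, was at 1.14 ± 0.05 in the RNA labelled G2KO.

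Markers of some cell types also differed between the cultures compared. Of 8 mesothelial markers, all detected in G1KO, 7 were called lower and 1 higher, and their summed signal was between 24808 and 32154 in G1KO RNA and between 209588 and 263514 in WT RNA. In the G2KO comparison 3 of the 8 were detected, with 1 called higher, 2 lower and a median log2 ratio of -1.40, and the summed signal was between 3928 and 4259 in G2KO RNA and between 1920 and 1983 in WT RNA. Of 9 epithelial markers, 6 were detected in G1KO with 2 lower and none higher, and 5 in the other comparison with 1 higher and none lower. Of 12 fibroblast markers, all detected, 3 were higher and 1 lower in G1KO, and 6 were lower and none higher in the RNA labelled G2KO, with a median of -1.13; 3 of these 6 were the collagens named above. The fibroblast marker Pdgfra was at -4.63 ± 0.09 in that RNA. Of 8 leukocyte markers, 4 and 3 were detected and none was called. Of 8 smooth muscle markers, 7 were detected in G1KO, with 2 higher, and 8 in the other comparison, with none called; their summed signal was between 302418 and 304621 in G1KO RNA and between 304366 and 315159 in its WT. Of 8 glial and Schwann markers, 6 were detected in G1KO, with 1 higher and 1 lower and a summed signal of 1577 to 1627 against 836 to 855 in WT RNA, and 5 in the other comparison, with none called. Endothelial markers had 1 of 3 detected genes called lower in G1KO, and the megakaryocyte and platelet list and the skeletal muscle list each had 1 of 2 detected genes called lower in the second comparison. The part of these cell types in the integrin and laminin values was not tested.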

How the data were processed

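RNA of G1KO and G2KO MEFs and of their WT partners was labelled with Cy3 or Cy5 and hybridised in pairs to 4 Agilent arrays. Spots were quantified by the authors in Feature Extraction (Agilent). The file headers give version 10.5.1.1 and the submitters' processing notes 9.1. The deposited scanner files hold mean spot and median background intensity on a linear scale, with no background subtraction in those columns, and the scanner's log10 ratio of Cy5 over Cy3. The deposited series table holds log10 values that matched the scanner's log10 ratio (r of at least 0.999999 on each array, medians of 0), so its direction is Cy5 over Cy3.

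From the intensities, background was corrected by normexp with an offset of 50 and each array was normalised by loess in limma 3.58.1 (R 4.3.3). Control and outlier spots had weight 0 in loess and were then left out. Spots of a probe were averaged, ratios were turned to knockout over WT, and arrays were averaged. Signals per channel were scaled across arrays by the Aquantile method. A gene was tested where 1 genotype was well above background on both arrays, and called where both arrays passed 2-fold (1 on the log2 scale) in the same direction. No test across genes was run, because each genotype had 1 sample. The number of arrays limits the precision. The steps were tested on simulated data. A further 14 settings were tried, of background correction, normalisation, source of the ratio, filter, probe choice, symbols, threshold and leaving out an array. Array symbols were kept. A gene that the rule on symbols also matches is not reported here and is left out of the member counts. Of the 34 members, 26 were matched to RefSeq by accession and 8 by symbol, and 22 had a promoter sequence in the RefSeq table. The text names every member. It gives both array values for called members, those above background on both arrays in 1 genotype only and those near the threshold. From the other lists it names some of the called genes, not all, and Lamb1. The members, lists and tests were chosen with earlier results of these data known. Figures were drawn with matplotlib 3.10.9.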

Additional observations from a re-analysis of the deposited data

Results flagged for a closer look

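For 5 genes called in at least 1 comparison, both arrays of G1KO moved one way and both arrays of the RNA labelled G2KO moved the opposite way. The difference, the mean log2 ratio in G2KO minus that in G1KO, was 5.22 for Itgb4 and 2.92 for Lama5, which were below WT in G1KO. It was -3.88 for Itga8, -3.84 for Lama2 and -2.22 for Itgb7, which were above WT in G1KO. The differences between the comparisons were not tested, and the WT cultures themselves differed by over 2-fold in each of these 5 genes.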

How the results depend on the processing

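No paired analysis was possible because each comparison rests on 1 pair of samples and on no test. The called genes had 22 values under the alternatives in G1KO and 76 in G2KO, and none changed sign; among all detected members, Itga1, Itga3, Itgav and Itgb3 changed sign in at least 1 alternative in G1KO, and Itga1 and Itgb3 in G2KO. In G1KO, the members called higher numbered 4 with the log ratio of the scanner software and with the deposited series table (Itga6, Itga8, Itgb7 and Lama4), 2 with no background correction and with a normexp offset of 10 (Lama4 added), 2 with any detected probe of the gene (Itga6 added; chosen after seeing the data), 4 at a 1.5-fold threshold and 0 at 4-fold, and 1 to 2 when an array was left out (Itga6 added without array 1). Those called lower numbered 4 at 1.5-fold, and 2 with any detected probe, which added Itgb3 there and in the other comparison. In the RNA labelled G2KO, the members called higher numbered 2 with median centring (Itgb4 and Lama5 but not Itga3 or Itga6) and 0 at 4-fold. Requiring both genotypes above background removed Itgb7. Those called lower numbered 4 with the log ratio of the scanner software and with the series table, which added Itga10. The share of all detected genes called under each alternative setting is not given here. A change in these counts is therefore not a result about the members. Among called genes, means moved by over 1.5-fold as follows. The series table gave 2.13 for Itga8 in G1KO and -4.51 for Lama2 and -3.77 for Itgb7 in G2KO, close to the values of the scanner software, and a normexp offset of 10 gave -3.995 and -2.50 for the latter pair. The mean of all detected probes gave -2.43 for Itgb4 in G1KO and -1.67 for Itga8 in G2KO.

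The median log2 ratio of the members in G1KO, -0.06, became -0.0022 with median centring, -0.0061 with no filter on dim probes, and -0.022 to 0.030 when an array was left out, so that without array 2 its sign changed. In G2KO, -0.21 became -0.144 with RefSeq current symbols, which add Lamb1, -0.080 with both genotypes above background, -0.088 with median centring, -0.065 with no filter, and -0.221 to -0.157 when an array was left out. Why these values moved was not tested. RefSeq current symbols also changed the value of Itga9. With the mean of all detected probes, Itga6 in G2KO was at 0.76 and was not called. Signals close to background limit the leukocyte subunits, Itga9, Itga10, Itga2b and, in G1KO, Itga4. With the log ratio of the scanner software, Itga4 in G1KO was at 0.57 in place of 0.14, and Itga2b at 0.44 in place of 0.12.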
